A study of Saccharomyces cerevisiae with 8 samples.

Results

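The comparison described here sets Saccharomyces cerevisiae cells labelled as a deletion of MUB1 (mub1Δ, written mub1 below) against cells labelled wild type, both grown with Calcofluor white. It rests on 4 of the 8 libraries of the series: 2 of mub1 with 20 µg/ml Calcofluor white and 2 of the wild type with 20 µg/ml Calcofluor white. The other 4 libraries are 2 of mub1 and 2 of the wild type in the same chemically defined medium with 0 µg/ml. All cultures were in exponential phase and were grown for 5 hours. The labels name BMA41 as the wild type and describe mub1 as its derivative, and they give no marker, clone or mating type for either. Polyadenylated RNA was sequenced from stranded libraries, and the deposited values are counts of reads per gene. Unless the medium is named, every value below is from the libraries with Calcofluor white (CFW).

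Mub1 works with the ubiquitin ligase Ubr2 and the ubiquitin-conjugating enzyme Rad6. In this complex it marks Rpn4, the transcription factor that activates proteasome genes, for destruction by the proteasome. Calcofluor white, a fluorescent dye with an affinity for chitin, interferes with the building of the cell wall. Yeast answers such damage through the cell wall integrity pathway, in which sensors at the cell surface and the GTPase Rho1 start a kinase cascade that ends in the kinase Slt2 and the transcription factor Rlm1, which switches on genes for wall proteins, chitin and glucan.

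MUB1 (YMR100W, chrXIII:466300-468162, plus strand, build R64) had 0 and 1 counts in mub1 replicates 1 and 2, against 1042 and 1226 counts in the wild type, so the targeted gene went with the labels. The groups also parted at genes that the labels do not mention. LEU2 (YCL018W, an enzyme of leucine synthesis) was counted 5053 and 7122 times in mub1, against 2 and 0 times in the wild type, which is 5267-fold higher in mub1 with a 95% counting interval of 1458 to 43497. URA3 (uracil synthesis, YEL021W) had 6122 and 6648 counts in mub1 and 0 in both wild-type libraries, at least 3683-fold higher. Like URA3, MET17 (sulfur assimilation, YLR303W) was counted in mub1 only, with 4245 and 4538 counts against 0 and 0 in the wild type, at least 2533-fold higher. TRP1 (tryptophan synthesis, YDR007W) had 0 and 0 counts in mub1, against 909 and 976 counts in the wild type, at least 726.2-fold lower in mub1. SOR2 (a sorbitol dehydrogenase gene, YDL246C) had 226 and 254 counts in mub1 and 0 and 0 in the wild type, but a near-identical copy, SOR1, makes its counts uncertain. These 6 genes were the only ones with at most 3 counts summed over one genotype and at least 50 in each library of the other. Lower bounds are set against 3 counts summed over the group at 0.

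Other marker genes of laboratory strains were expressed in both genotypes at different levels. ADE2 (adenine synthesis) had 47.4 and 45.6 CPM (counts scaled to the library total, with TMM factors) in mub1, against 176 and 173 CPM in the wild type (log2 difference -1.91 ± 0.07, ± standard error, adjusted p = 1.37e-07). HIS3 (histidine synthesis) had 39.5 and 39.3 CPM in mub1, against 68.8 and 61.6 CPM in the wild type (log2 -0.73 ± 0.08). LYS2 (lysine synthesis) was higher in mub1 by 1.28 ± 0.09 and CAN1 (arginine permease) by 0.56 ± 0.07 on the log2 scale. All 8 genes of the marker list were thus called, 5 higher and 3 lower in mub1. Mub1 and wild-type libraries therefore differ in MUB1, in whether transcripts of some other genes were counted, and in levels of marker genes. Whether the levels of ADE2, HIS3, LYS2 and CAN1 differ as strain markers or along with their pathways was not tested. Despite the labels, the wild type cannot be taken as a parent of mub1 that is identical outside MUB1. "Mub1" and "wild type" are used below as names of the labelled groups. The part that each of these differences has in any result below cannot be told apart.

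**Figure D1:**
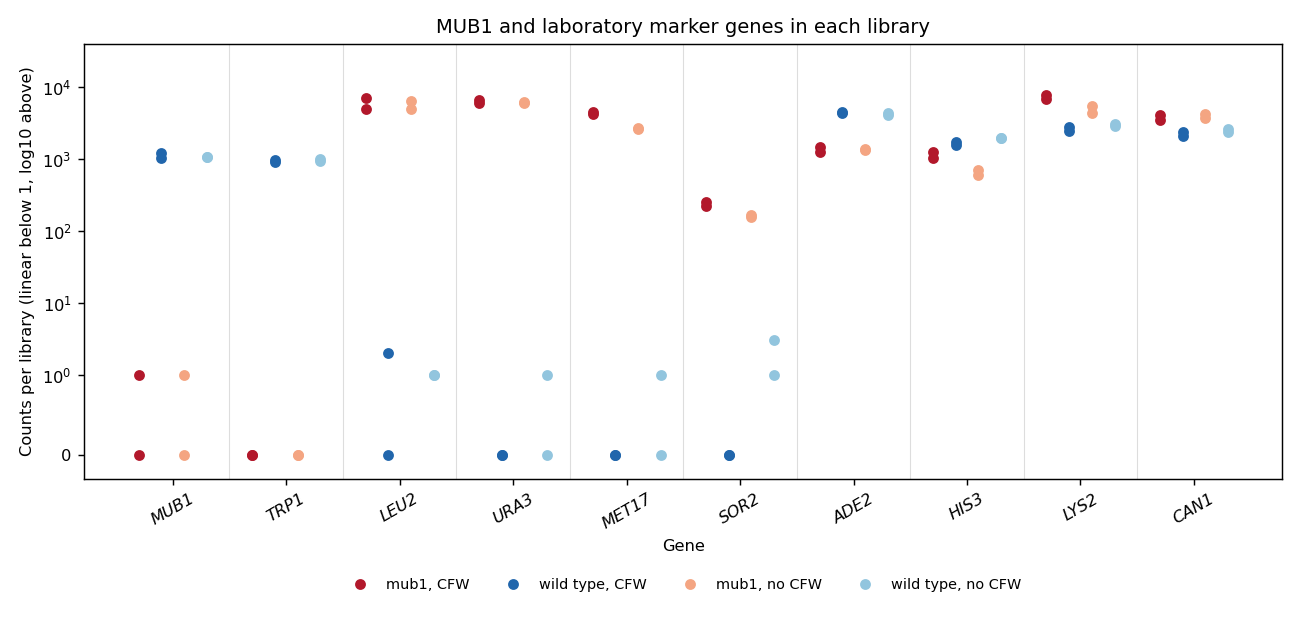
Counts per library (vertical axis, linear below 1 and log10 above) of MUB1, SOR2 and the 8 laboratory marker genes (horizontal axis) in the 8 libraries. Each point is 1 library, with mub1 left of wild type in each medium. LEU2, URA3 and MET17 stand near the top of the axis in mub1 and at 0 to 2 counts in the wild type, MUB1 and TRP1 the other way round.

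Differences between the genotypes were widespread. Of 5954 genes tested with edgeR's quasi-likelihood test, 2138 passed an adjusted p of 0.05 (35.9%), of which 1110 were higher (18.6%) and 1028 were lower (17.3%) in mub1. At least 2-fold differences were found for 246 of these genes (4.13%), 142 higher (2.38%) and 104 lower (1.75%). The 2 mub1 values did not overlap the 2 wild-type values for 3944 genes (66.2%). The median log2 difference over all tested genes was -0.01. These shares are the background for the counts of gene groups below, in which "higher", "rose", "lower" and "fell" are used of genes that passed that threshold. The 2 wild-type libraries differed from each other more (75.02 times the variance of counting) than the 2 mub1 libraries (29.41 times). Without mub1 replicate 1 the count of called genes was 1274, without mub1 replicate 2 it was 1283, and with only the 4 CFW libraries in the fit it was 1419.

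**Figure D2:**
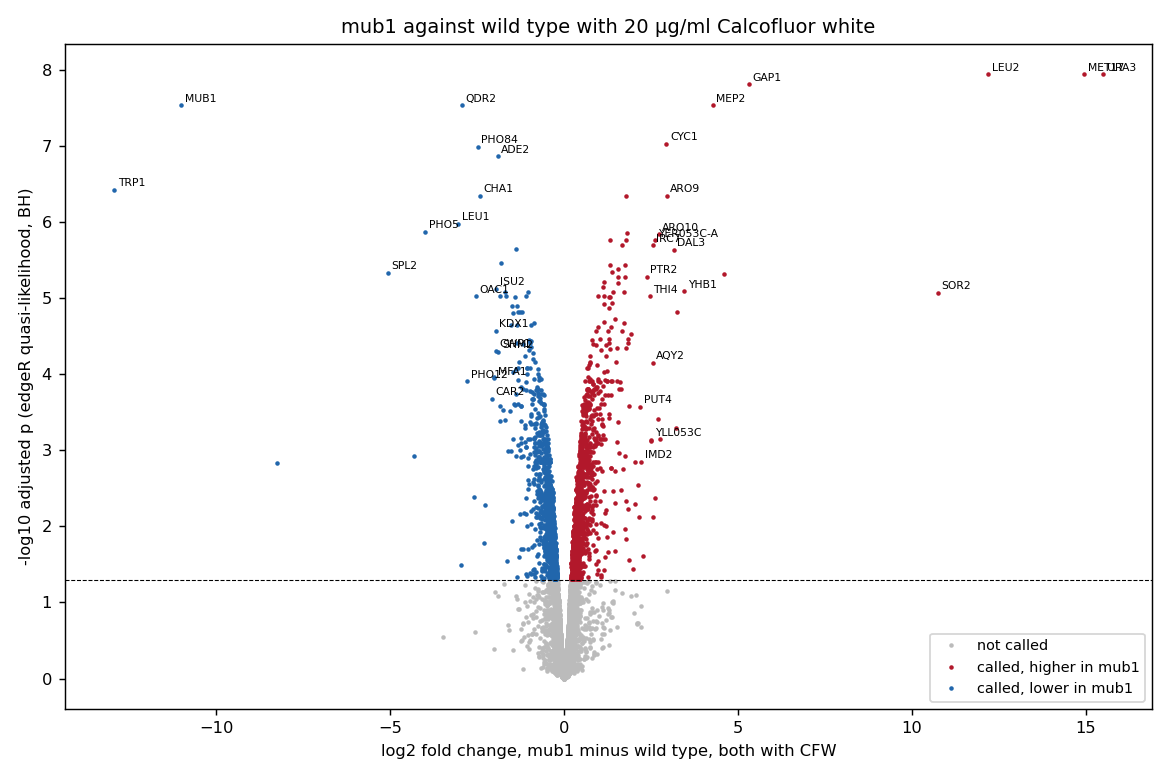
Each point is 1 of the 5954 tested genes. The horizontal axis gives the log2 fold change of mub1 minus wild type with CFW, the vertical axis -log10 of the adjusted p, and the dashed line the threshold of 0.05. Names mark the genes present in 1 genotype and the 15 largest increases and 15 largest decreases; GAP1 and MEP2 lead the increases, and SPL2 and PHO5 the decreases, among genes expressed in both with a mean of at least 10 CPM.

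The ligase's own circuit moved little, while most proteasome subunit genes were higher in mub1 by less than 2-fold. UBR2 had 59.7 and 60.7 CPM in mub1, against 48.9 and 50.6 CPM in the wild type (log2 0.27 ± 0.07, adjusted p = 0.0126). RAD6 (-0.02 ± 0.07, adjusted p = 0.816) did not pass. RPN4 had 391 and 423 CPM in mub1, against 308 and 376 CPM in the wild type (log2 0.25 ± 0.11), and with an adjusted p of 0.107 its transcript did not pass either, although it did without wild-type replicate 2. The related ligase gene UBR1 (0.21 ± 0.07, adjusted p = 0.0306) and the polyubiquitin gene UBI4 (0.38 ± 0.11, adjusted p = 0.0214) were called. UBR2 and UBI4 lost their calls with only the CFW libraries fitted and without either mub1 library, and UBR1 lost its call under 8 of 14 alternative settings. Of the 10 genes of the circuit list, 3 were higher, 1 (MUB1) was lower and 6 did not pass, with a median of 0.07.

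Of the 14 genes of the 20S core particle, which holds the proteolytic sites, 12 were higher, 0 were lower and 2 did not pass, against 18.6% higher over all genes. Their median log2 difference was 0.29, and their values ran from 0.06 (PRE9, which did not pass) to 0.48. PRE4, a beta subunit, had 401 and 393 CPM in mub1, against 276 and 291 CPM in the wild type (log2 0.48 ± 0.07, adjusted p = 0.000973). Of the 19 genes of the 19S regulatory particle, which recognises and unfolds substrates, 14 were higher, 0 were lower and 5 did not pass (median 0.32), and the values ran from -0.16 (SEM1, which did not pass) to 0.53. The ATPase gene RPT6 had 554 and 574 CPM in mub1, against 391 and 390 CPM in the wild type (log2 0.53 ± 0.08, adjusted p = 0.000902). RPN9, a lid subunit, had 261 and 259 CPM in mub1 and 197 and 200 CPM in the wild type (log2 0.39 ± 0.06, adjusted p = 0.0016). Each of these subunit genes separated the genotypes without overlap at a difference of less than 2-fold. Of 18 assembly factors and adaptors 9 were higher, 0 were lower and 9 did not pass (median 0.18), led by ECM29, a proteasome tether (0.74 ± 0.07), DDI1, a shuttle factor (0.49 ± 0.08), and UMP1, an assembly chaperone (0.45 ± 0.07). Calls among these lists depended on the libraries fitted. With only the CFW libraries, without mub1 replicate 1 and without mub1 replicate 2, the core had 7, 6 and 6 genes higher, the regulatory particle 8, 8 and 9, and the assembly list 5, 5 and 5.

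The RPN9 promoter is shown because it holds the sequence that Rpn4 binds, GGTGGCAAA, and because RPN9 was called. The window is the first 300 of the 400 bases before the start codon in RefSeq's R64 genome (chrIV:1321805-1322104, plus strand), with matches in capitals.
RPN9: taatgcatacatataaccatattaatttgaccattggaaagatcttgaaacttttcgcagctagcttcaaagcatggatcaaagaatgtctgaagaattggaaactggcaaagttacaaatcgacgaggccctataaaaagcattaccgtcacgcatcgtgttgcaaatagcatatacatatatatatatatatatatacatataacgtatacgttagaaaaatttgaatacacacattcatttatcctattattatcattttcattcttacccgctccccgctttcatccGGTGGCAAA
On either strand this motif was found in 9 of 14 core promoters (64.3%), 12 of 19 regulatory particle promoters (63.2%) and 69 of 5863 promoters in all (1.18%). A match is a description of the letters in the window and not evidence of binding. The lists came from textbook knowledge, so a high share in a list, here or below, does not bear on the calls.

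Of the cell wall integrity pathway, the final kinase gene and most listed targets of Rlm1 were lower in mub1 than in the wild type, while most signalling genes did not pass. SLT2, the kinase at the end of the cascade, had 260 and 256 CPM in mub1, against 493 and 611 CPM in the wild type (log2 -1.10 ± 0.11, adjusted p = 0.000129). RLM1, its transcription factor, had 143 and 146 CPM in mub1 and 175 and 223 CPM in the wild type (log2 -0.46 ± 0.11, adjusted p = 0.00986), a call that was lost without either mub1 library. Both genes were lower in each mub1 library than in either wild-type library. Over the 27 signalling genes, however, 2 were higher, 6 were lower (22.2%, near the 17.3% over all genes) and 19 did not pass, with a median of -0.07. The sensor gene WSC2 (-0.61 ± 0.08), the kinase gene BCK1 (-0.27 ± 0.08) and the phosphatase genes PTP2 (-0.40 ± 0.10) and MSG5 (-0.88 ± 0.16) were lower, and the phosphatase gene SDP1 (0.43 ± 0.09) was higher. PKC1 (-0.18 ± 0.07, adjusted p = 0.0794), MKK1 (-0.07 ± 0.08) and RHO1 (-0.11 ± 0.08) did not pass. Without either mub1 library 3 signalling genes were lower.

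Of 21 targets of Rlm1, 0 were higher, 18 were lower and 3 did not pass, with a median log2 difference of -0.81, against 17.3% lower and a median of -0.01 over all genes. KDX1, a kinase-like relative of Slt2, had 44.2 and 42.3 CPM in mub1, against 137 and 200 CPM in the wild type (log2 -1.96 ± 0.15, adjusted p = 2.70e-05). CWP1, a wall mannoprotein linked to glucan, had 183 and 144 CPM in mub1 and 521 and 746 CPM in the wild type (log2 -1.95 ± 0.17, adjusted p = 4.96e-05). PRM5, a membrane protein gene whose transcript is a usual reporter of the pathway, had 135 and 141 CPM in mub1, against 427 and 537 CPM in the wild type (log2 -1.80 ± 0.10, adjusted p = 3.47e-06). For these targets every wild-type value was more than 2-fold above every mub1 value. HSP150, an abundant secreted wall protein, had 2891 and 2964 CPM in mub1, against 6488 and 8769 CPM in the wild type (log2 -1.38 ± 0.15, adjusted p = 0.000185). CIS3 (-1.31 ± 0.13), PST1 (-1.23 ± 0.19), PIR1 (-1.10 ± 0.16) and YPS3, a wall protease gene (-0.81 ± 0.13), were lower too.

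The 3 targets that did not pass were glucan synthase genes and PIR3. FKS1 had 1038 and 996 CPM in mub1, against 990 and 1005 CPM in the wild type (log2 0.03 ± 0.10). GSC2, whose subunit is the stress-induced one, had 463 and 463 CPM in mub1, which lie between the wild-type values of 408 and 725 CPM (log2 -0.29 ± 0.21, adjusted p = 0.322). PIR3 had 579 and 514 CPM in mub1, against 557 and 1275 CPM in the wild type (log2 -0.75 ± 0.32, adjusted p = 0.116). For GSC2 and PIR3 the wild-type replicates lay farther apart than the group means, and both passed as lower in mub1 without wild-type replicate 1, the one with the smaller value, whereas without replicate 2 GSC2 was at 0.18.

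**Figure D3:**
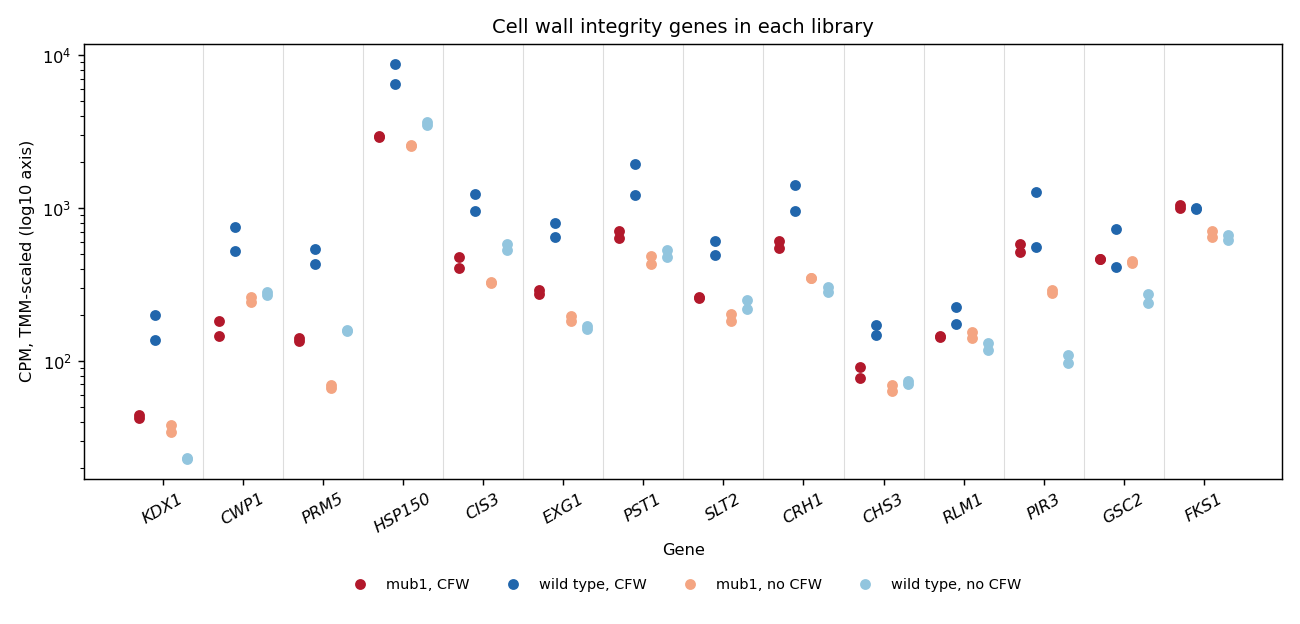
CPM of 14 cell wall integrity genes (horizontal axis) on a log10 axis, with 1 point per library and mub1 left of wild type, first with CFW and then without it. With CFW the mub1 points of KDX1, CWP1, PRM5, HSP150, CIS3, EXG1, PST1, SLT2, CRH1, CHS3 and RLM1 lie below both wild-type points, and those of PIR3, GSC2 and FKS1 overlap them.

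The CWP1 promoter is shown as that of a strongly lower target which holds the Rlm1 motif, CTA and TAG with 4 bases of any kind between them (chrXI:260732-261031, plus strand, same window, match in capitals).
CWP1: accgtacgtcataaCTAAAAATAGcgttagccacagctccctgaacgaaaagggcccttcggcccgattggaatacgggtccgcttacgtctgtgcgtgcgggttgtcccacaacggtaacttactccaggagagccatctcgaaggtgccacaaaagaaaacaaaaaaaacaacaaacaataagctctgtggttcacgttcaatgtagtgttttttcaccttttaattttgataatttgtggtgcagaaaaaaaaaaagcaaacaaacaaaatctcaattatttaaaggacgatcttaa
The motif was found in 8 of 21 target promoters (38.1%) and in 322 of 5863 promoters (5.49%). Of the 18 targets that were lower, 6 held it, so most of them had no match in the window.

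Wall polymers followed with smaller differences. Of 19 genes for chitin synthesis and crosslinking, 1 was higher, 9 were lower and 9 did not pass (median -0.29). CHS3, the main chitin synthase, had 91.1 and 77.5 CPM in mub1, against 148 and 172 CPM in the wild type (log2 -0.92 ± 0.10, adjusted p = 0.000173). CRH1, which crosslinks chitin to glucan, had 606 and 548 CPM in mub1, against 954 and 1419 CPM in the wild type (log2 -1.04 ± 0.16, adjusted p = 0.00127). The activator gene SKT5 (-0.87 ± 0.10), the export factor gene CHS7 (-0.94 ± 0.11) and PCM1, of the route to UDP-N-acetylglucosamine (-0.67 ± 0.08), were also lower, so that synthase, trafficking and precursor genes were all represented. Of 28 genes for beta-glucan synthesis and remodelling, 1 was higher, 14 were lower and 13 did not pass (median -0.28). EXG1, the main exoglucanase, had 288 and 274 CPM in mub1, against 646 and 801 CPM in the wild type (log2 -1.36 ± 0.11, adjusted p = 2.24e-05). GAS2 (-1.67 ± 0.11), EXG2 (-0.96 ± 0.12) and KRE6 (-0.52 ± 0.08) were lower as well. Of 27 mannoproteins 2 were higher, 14 were lower and 11 did not pass (median -0.39), and of 20 mannosylation genes 2 were higher, 5 were lower and 13 did not pass (median -0.05). The lower count for beta-glucan was 9 without mub1 replicate 2, that for mannoproteins was 9 with only the CFW libraries fitted, and that for mannosylation was 3 under 6 settings. These wall lists and the Rlm1 list share many members, such as CHS3 and CRH1, so their counts are not separate results. Most mannoproteins called lower are also listed Rlm1 targets (CWP1, CCW12, CCW14, SED1, PIR1, HSP150, CIS3, PST1 and YPS3). SLT2 and RLM1 are in both the signalling and the target list. Among the 16 genes of calcineurin and calcium handling, 5 were higher, including the transcription factor gene CRZ1 (0.70 ± 0.08) and the vacuolar calcium pump gene PMC1 (0.75 ± 0.09). In the same list 6 were lower, including CNA1, a catalytic subunit of calcineurin (-0.79 ± 0.08), and the calcium channel gene MID1 (-0.65 ± 0.09), while 5 did not pass (median 0.09). Without mub1 replicate 2 the list had 3 lower.

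Genes for the use of poor nitrogen sources gave the largest increases among genes expressed in both genotypes with a mean of at least 10 CPM. GAP1, the general amino acid permease (YKR039W, chrXI:515063-516871), had 715 and 642 CPM in mub1, against 15.8 and 18.1 CPM in the wild type (log2 5.32 ± 0.14, or 39.9-fold, adjusted p = 1.57e-08). MEP2, the high-affinity ammonium permease (YNL142W, chrXIV:357453-358952), had 215 and 176 CPM in mub1, against 9.48 and 10.8 CPM in the wild type (log2 4.27 ± 0.13, or 19.3-fold, adjusted p = 2.95e-08). DAL3, of allantoin breakdown, had 24.9 and 20.7 CPM in mub1 and 2.36 and 2.78 CPM in the wild type (log2 3.15 ± 0.17, adjusted p = 2.33e-06). The replicates of each genotype lay close together relative to these distances. Of 29 genes under nitrogen catabolite repression, the control by which good nitrogen sources silence such genes, 22 were higher, 1 was lower and 6 did not pass (median 0.69). The GATA factor genes DAL80 (4.61 ± 0.28), GAT1 (1.23 ± 0.12), GZF3 (1.03 ± 0.09) and GLN3 (0.22 ± 0.07) were among those higher, as was the proline permease gene PUT4 (2.18 ± 0.24). URE2, which holds Gln3 back, did not pass (0.06 ± 0.07). CAR2, of arginine breakdown, was the exception, with 10.8 and 9.11 CPM in mub1, against 30.4 and 53.3 CPM in the wild type (log2 -2.08 ± 0.23, adjusted p = 0.000211).

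The promoters of GAP1 (chrXI:514663-514962, plus strand) and MEP2 (chrXIV:357053-357352, plus strand) are shown because these genes led the increases and hold several copies of the core sequence of GATA factor sites, GATAAG, in capitals on either strand: 3 matches in GAP1 and 4 in MEP2, a pair of which overlap.
GAP1: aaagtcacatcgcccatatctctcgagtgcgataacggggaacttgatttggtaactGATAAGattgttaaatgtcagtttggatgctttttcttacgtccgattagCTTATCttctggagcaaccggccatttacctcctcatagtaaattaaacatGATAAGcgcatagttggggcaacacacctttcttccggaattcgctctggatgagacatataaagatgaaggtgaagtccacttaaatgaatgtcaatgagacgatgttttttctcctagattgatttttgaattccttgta
MEP2: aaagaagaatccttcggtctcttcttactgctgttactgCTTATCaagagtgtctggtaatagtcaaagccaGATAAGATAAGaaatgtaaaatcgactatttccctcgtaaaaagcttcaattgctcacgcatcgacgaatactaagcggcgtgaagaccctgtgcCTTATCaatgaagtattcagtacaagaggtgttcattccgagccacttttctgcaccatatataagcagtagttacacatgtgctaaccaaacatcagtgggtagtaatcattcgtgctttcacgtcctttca
GATAAG was found in 21 of 29 promoters of the list (72.4%) and in 819 of 5863 promoters (14.0%).

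Amino acid transport and synthesis split by pathway. Of 20 amino acid permease genes 8 were higher, 4 were lower and 8 did not pass (median 0.13). AGP1, a broad permease, had 636 and 597 CPM in mub1, against 172 and 189 CPM in the wild type (log2 1.77 ± 0.09), while MUP1, the methionine permease, was lower (-1.29 ± 0.12). The peptide transporter gene PTR2 was higher by 2.37 ± 0.14. Of 21 genes for arginine, lysine and histidine synthesis 15 were higher, 1 (HIS3) was lower and 5 did not pass (median 0.83). ARG8 had 157 and 144 CPM in mub1, against 44.0 and 43.7 CPM in the wild type (log2 1.78 ± 0.07, adjusted p = 4.56e-07). The sequence TGACTCA, bound by Gcn4, was found in 12 of the 21 promoters (57.1%) and 173 of 5863 promoters (2.95%). Of 12 aromatic amino acid synthesis genes 6 were higher, 1 (TRP1) was lower and 5 did not pass (median 0.28). ARO9 and ARO10, which break down aromatic amino acids in the Ehrlich pathway, were among the largest increases: ARO9 had 107 and 111 CPM in mub1, against 13.8 and 14.3 CPM in the wild type (log2 2.95 ± 0.13). ARO10 rose by 2.72 ± 0.13, and over the 11 Ehrlich genes 3 were higher, 1 was lower and 7 did not pass (median 0.17).

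Leucine synthesis moved the other way at several steps, beside LEU2 itself. LEU1, which acts just before LEU2 in the pathway (YGL009C, chrVII:476313-478652), had 121 and 124 CPM in mub1, against 1110 and 913 CPM in the wild type (log2 -3.04 ± 0.14, or 8.25-fold lower, adjusted p = 1.07e-06). OAC1, a mitochondrial carrier used in leucine synthesis, had 14.8 and 15.5 CPM in mub1 and 102 and 74.2 CPM in the wild type (log2 -2.54 ± 0.17, adjusted p = 9.54e-06). BAT1, the mitochondrial branched-chain aminotransferase, had 305 and 262 CPM in mub1, against 800 and 660 CPM in the wild type (log2 -1.36 ± 0.12, adjusted p = 3.91e-05). All these genes were lower in the genotype in which LEU2 was counted. Over the 13 genes of leucine, isoleucine and valine synthesis 3 were higher (LEU2, LEU3 and ILV2), 5 were lower and 5 did not pass, with a median of 0.11. The LEU1 promoter (chrVII:478753-479052, minus strand) is shown because it holds the motif of the regulator Leu3, CCGG and CCGG with 2 bases of any kind between them, in capitals.
LEU1: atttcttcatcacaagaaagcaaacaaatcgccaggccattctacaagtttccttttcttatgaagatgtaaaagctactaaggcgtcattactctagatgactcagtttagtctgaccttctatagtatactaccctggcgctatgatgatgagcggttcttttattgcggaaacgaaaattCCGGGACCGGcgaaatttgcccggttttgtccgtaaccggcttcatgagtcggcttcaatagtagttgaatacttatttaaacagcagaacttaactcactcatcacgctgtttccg
This motif was found in 4 of 13 promoters of the list (30.8%) and 10 of 5863 promoters in all (0.171%).

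Genes of other auxotrophic pathways were also different. In this paragraph the genes counted as higher include URA3 (pyrimidine list) and MET17 (methionine and sulfur list), which were counted in mub1 only. URA1, which acts before URA3 in pyrimidine synthesis, had 461 and 433 CPM in mub1, against 1747 and 1452 CPM in the wild type (log2 -1.84 ± 0.12), and URA4 was lower by a log2 of -1.41 ± 0.10. Of 13 pyrimidine genes 5 were higher, 3 were lower and 5 did not pass (median 0.17). In purine synthesis 4 of 19 genes were higher, 10 were lower and 5 did not pass (median -0.44). Besides ADE2, these included SHM2 (one-carbon supply), at 106 and 88.4 CPM in mub1, against 403 and 315 CPM in the wild type (log2 -1.89 ± 0.16), MTD1 (-1.44 ± 0.17) and ADE8 (-0.63 ± 0.08). IMD2, of guanine nucleotide synthesis, was higher by 2.22 ± 0.31, with counts that near-identical copies may share. The higher purine count was 2 with only the CFW libraries fitted and without mub1 replicate 1. Of 25 methionine and sulfur genes 4 were higher, 10 were lower and 11 did not pass (median -0.25), with CYS3, of cysteine synthesis, at -0.97 ± 0.08 and MET22 at 0.92 ± 0.08, and without mub1 replicate 2 there were 5 lower. Of 17 serine, threonine and one-carbon genes 4 were higher, 9 were lower and 4 did not pass (median -0.27). Among them CHA1, of serine breakdown, had 34.9 and 36.1 CPM in mub1, against 192 and 185 CPM in the wild type (log2 -2.41 ± 0.10), and SER3, of serine synthesis, was higher (1.84 ± 0.15).

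The phosphate regulon, which the transcription factor Pho4 induces when phosphate is scarce, was lower in mub1. SPL2, which acts on phosphate transporters (YHR136C, chrVIII:374654-375100), had 1.35 and 0.72 CPM in mub1, against 39.5 and 28.7 CPM in the wild type (log2 -5.07 ± 0.29, or 33.5-fold lower, adjusted p = 4.69e-06). PHO5, the repressible acid phosphatase (YBR093C, chrII:429548-430951), had 28.7 and 21.9 CPM in mub1, against 472 and 334 CPM in the wild type (log2 -3.99 ± 0.19, or 15.9-fold lower, adjusted p = 1.34e-06). PHO84, the high-affinity phosphate transporter, had 25 and 26.8 CPM in mub1 and 149 and 141 CPM in the wild type (log2 -2.48 ± 0.09, adjusted p = 1.03e-07). The genotypes were far apart at each of these genes, by more than 5-fold for PHO84 and more for the others. Of 16 genes of the regulon 3 were higher, 10 were lower and 3 did not pass (median -0.55), and 1 listed gene, PHO11, was not analysed here. PHO12 (-2.79 ± 0.27) has a near-identical copy. The polyphosphate synthesis genes VTC1 (-0.83 ± 0.08), VTC3 (-1.23 ± 0.14) and VTC4 (-0.70 ± 0.09) were lower, and GIT1, the glycerophosphoinositol transporter gene, was higher (1.39 ± 0.14). The PHO5 promoter (chrII:431052-431351, minus strand) holds the Pho4 core CACGTG, in capitals.
PHO5: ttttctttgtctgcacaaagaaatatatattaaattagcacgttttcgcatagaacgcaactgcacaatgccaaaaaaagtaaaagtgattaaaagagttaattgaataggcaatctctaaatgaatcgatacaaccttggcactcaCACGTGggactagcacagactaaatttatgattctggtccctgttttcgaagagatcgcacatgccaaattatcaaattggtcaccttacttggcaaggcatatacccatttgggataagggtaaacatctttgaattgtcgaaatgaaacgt
CACGTG was found in 11 of 16 promoters of the regulon (68.8%) and 266 of 5863 promoters (4.54%).

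Respiration genes were higher in mub1. Of 33 genes coding for respiratory chain or ATP synthase subunits 28 were higher, 1 (ATP15) was lower and 4 did not pass (median 0.52). CYC1, cytochrome c, had 298 and 280 CPM in mub1, against 36.8 and 38.5 CPM in the wild type (log2 2.94 ± 0.10, adjusted p = 9.39e-08). COX5A, a cytochrome c oxidase subunit, had 408 and 333 CPM in mub1, against 147 and 167 CPM in the wild type (log2 1.24 ± 0.12, adjusted p = 9.20e-05). RIP1, the Rieske iron-sulfur protein, was higher by 1.18 ± 0.13. Without mub1 replicate 1 there were 15 chain genes higher, and under 7 of the alternative settings 0 were lower. Of 71 mitochondrial ribosomal protein genes 54 were higher, 0 were lower and 17 did not pass (median 0.43), with MRPL11 at 0.79 ± 0.07 and NAM9 at 0.83 ± 0.07. Of 30 genes of the citric acid cycle and pyruvate entry 11 were higher, 2 were lower and 17 did not pass (median 0.02), led by the aconitase gene ACO1 (0.91 ± 0.11); with only the CFW libraries fitted and without mub1 replicate 1 the count higher was 7. YHB1, the flavohemoglobin gene that detoxifies nitric oxide, had 2792 and 2596 CPM in mub1, against 306 and 186 CPM in the wild type (log2 3.45 ± 0.22, adjusted p = 8.18e-06). HAP1, the heme-responsive activator of CYC1 among others, had 109 and 115 CPM in mub1, against 193 and 170 CPM in the wild type (log2 -0.70 ± 0.08, adjusted p = 0.000206). Its transcript thus stood lower where that of CYC1 stood higher. Of 17 heme and oxygen regulated genes 9 were higher, 3 were lower and 5 did not pass (median 0.56).

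Drug exporter genes moved in both directions. QDR2, a multidrug transporter of the plasma membrane (YIL121W, chrIX:132244-133872), had 29.6 and 26.7 CPM in mub1, against 221 and 211 CPM in the wild type (log2 -2.94 ± 0.09, or 7.66-fold lower, adjusted p = 2.95e-08). PDR5, the main drug efflux pump, had 195 and 145 CPM in mub1, against 420 and 423 CPM in the wild type (log2 -1.31 ± 0.13, adjusted p = 8.30e-05). PDR12, the weak acid exporter, had 171 and 180 CPM in mub1 and 56.1 and 49.6 CPM in the wild type (log2 1.73 ± 0.13, adjusted p = 2.15e-05). Over the 24 genes 8 were higher, 4 were lower and 12 did not pass (median 0.05), and without mub1 replicate 2 there were 4 higher. Of their regulators PDR1 was called higher (0.35 ± 0.09, adjusted p = 0.0163), a call lost without either mub1 library, and PDR3 (0.09 ± 0.10) did not pass. YAP1, the oxidative stress regulator, was higher (0.55 ± 0.08), as was the repressor gene CUP9 (0.38 ± 0.10), the call of which was lost without either mub1 library and with only the CFW libraries fitted. HSF1, the heat shock factor gene, did not pass (0.13 ± 0.10). Of 26 ergosterol genes 16 were higher, 4 were lower and 6 did not pass (median 0.49), and without mub1 replicate 1 there were 2 lower. HMG1, the main HMG-CoA reductase, had 239 and 250 CPM in mub1, against 91.3 and 74.0 CPM in the wild type (log2 1.56 ± 0.10), and ERG25 was higher by 1.21 ± 0.10.

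Genes of the secretory pathway's folding machinery were lower, and those of protein synthesis moved little. Of 18 genes of endoplasmic reticulum chaperones and the unfolded protein response 0 were higher, 11 were lower and 7 did not pass (median -0.26), with the chaperone gene SCJ1 at -0.76 ± 0.09 and the disulfide isomerase gene EUG1 at -0.61 ± 0.08. That count was 5 with only the CFW libraries fitted and without mub1 replicate 1. Of 21 cytosolic heat shock chaperone genes 3 were higher, 0 were lower and 18 did not pass (median 0.06). Of 137 cytosolic ribosomal protein genes 10 were higher, 6 were lower and 121 did not pass (median -0.04), and of 50 ribosome biogenesis genes 11 were higher, 0 were lower and 39 did not pass (median 0.25). Both counts rested on single wild-type libraries. Without wild-type replicate 1 the ribosomal protein list had 35 higher and ribosome biogenesis 41 higher, and without wild-type replicate 2 the ribosomal protein list had 46 lower and ribosome biogenesis 7 higher. Without mub1 replicate 1 the higher counts were 4 and 4, without mub1 replicate 2 they were 5 and 6, and with only the CFW libraries they were 5 and 5 for ribosomal proteins and ribosome biogenesis. The lower count for ribosomal proteins was 11 by DESeq2, 2 with only the CFW libraries and 1 without mub1 replicate 2. Values of ribosomal protein pairs with near-identical copies, such as RPS28B (1.93 ± 0.15), are uncertain.

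Cell type genes had the pattern of a-cells in both genotypes and a lower level in mub1. The 7 a-specific genes summed to 691 and 693 CPM in mub1, against 1485 and 1127 CPM in the wild type, and the 5 alpha-specific genes summed to 54.9 and 49.8 CPM in mub1, against 68.2 and 72.9 CPM in the wild type. Sums in this paragraph, unlike values of single genes, are scaled to library totals without TMM factors. All 7 a-specific genes were lower (median -1.05), led by MFA1, an a-factor precursor, with 51.3 and 55.9 CPM in mub1, against 266 and 167 CPM in the wild type (log2 -2.01 ± 0.19, adjusted p = 0.000113). BAR1, the protease that degrades alpha-factor, was lower by a log2 of -1.32 ± 0.15. Of 4 alpha-specific genes tested 1 was higher, 2 were lower and 1 did not pass (median -0.40). The higher one, MF(ALPHA)1, had only 2.03 and 2.88 CPM in mub1, against 1.18 and 1.03 CPM in the wild type. Its call and that of STE3 (lower) were lost with only the CFW libraries fitted, while that of SAG1 (-0.51 ± 0.10) was kept. Of 18 mating response genes 2 were higher, 8 were lower and 8 did not pass (median -0.37), with FAR1 at -1.04 ± 0.17 and STE12 at -0.67 ± 0.13; without mub1 replicate 2 there were 5 lower. Meiosis and sporulation markers summed to 167 and 169 CPM in mub1 and 147 and 175 CPM in the wild type. Of these 10 markers 2 were higher, 2 were lower and 6 did not pass (median 0.21).

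**Figure D4:**
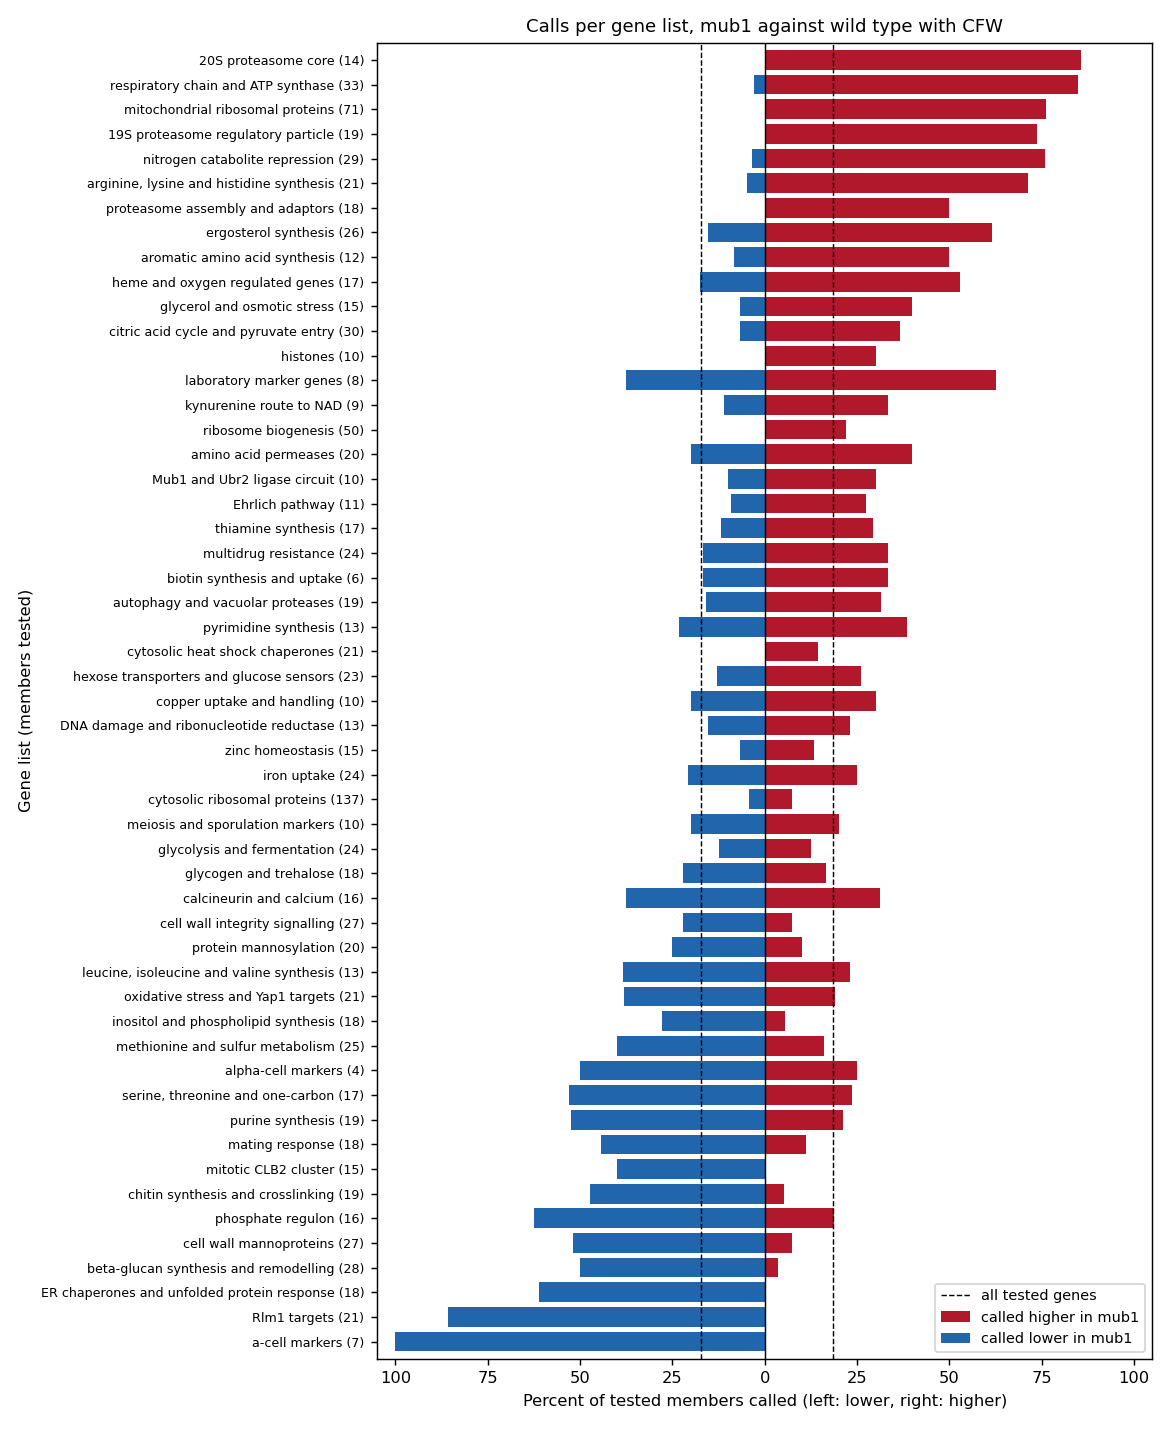
Percent of the tested members of each gene list (vertical axis, members tested in brackets) that were called higher (right) or lower (left) in mub1 than in the wild type with CFW. Dashed lines give the shares over all tested genes, 18.6% higher and 17.3% lower. The 20S core (85.7%), the respiratory chain (84.8%), mitochondrial ribosomal proteins (76.1%), nitrogen catabolite repression (75.9%) and the 19S particle (73.7%) reach farthest to the right, and a-cell markers and Rlm1 targets farthest to the left.

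Whether these differences were particular to the dye was tested by the interaction of genotype and medium over all 8 libraries. Without CFW 2554 genes were called between the genotypes (42.9%), 1316 higher (22.1%) and 1238 lower (20.8%) in mub1. Of the genes called with CFW 1375 were called in both media (64.3% of those with CFW and 53.8% of those without), 1348 in the same direction and 27 in opposite directions. Across genes the log2 differences in the 2 media had a Pearson r of 0.77 and a Spearman rho of 0.61, a description over genes, which are not independent. The interaction itself was called for 149 genes (2.5%), 53 with a higher value with CFW than without (0.89%) and 96 with a lower one (1.61%). That count moved greatly with single libraries: it was 1779 without wild-type replicate 1 with CFW, 366 without wild-type replicate 2 with CFW, and 9 to 49 without any other 1 library. It was 561 by DESeq2.

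Interactions were called in cell wall and nitrogen lists and in several others. For 6 of the 21 Rlm1 targets the difference was lower with CFW than without, against 1.61% lower over all genes, and for 0 was it higher. Without CFW 3 of the 21 targets were higher in mub1, 4 were lower and 14 did not pass, with a median of 0.08. KDX1 was at -1.96 with CFW, against 0.66 without it, an interaction of -2.62 ± 0.22 on the log2 scale (adjusted p = 0.000622). CWP1 was at -1.95 with CFW and -0.12 without it (interaction -1.83, adjusted p = 0.00935). EXG1, CRH1, SLT2 and CHS3 had interactions of -1.57, -1.29, -0.82 and -0.81. For each of these wall genes the genotypes were thus farther apart, with mub1 lower, in the presence of the dye. The difference was also lower with CFW than without for 4 of 19 chitin genes, 2 of 28 beta-glucan genes, 2 of 27 mannoproteins and 2 of 27 signalling genes, and these lists share members. Of 29 genes under nitrogen catabolite repression 5 (CAR1, CAR2, DUR12, OPT2 and PUT4) had such a lower value, and of 33 respiratory chain genes 1 had. Among the 27 mannoproteins the difference was higher with CFW for 1, TIR3 (interaction 0.96, adjusted p = 0.0462). Calls were not particular to wall and nitrogen lists. The difference was lower with CFW for 2 of 9 kynurenine, 2 of 10 copper and 2 of 18 endoplasmic reticulum genes. For 4 of 24 drug resistance genes it was higher, against 0.89% over all genes. No difference between lists was tested. RLM1 itself was at -0.70 and just missed the threshold (adjusted p = 0.0501). The 4 targets lower without CFW were PRM5 at -1.22, CIS3 at -0.78, HSP150 at -0.48 and CCW12 at -0.42. They were lower with CFW too, and their interactions did not pass (for PRM5, adjusted p = 0.0613).

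For most of the largest differences the interaction did not pass, which with 2 libraries a group does not show that they were equal. Several were of like size in both media. GAP1 was at 5.32 with CFW and 5.96 without it, MEP2 at 4.27 and 4.69, CYC1 at 2.94 and 2.91, SPL2 at -5.07 and -5.24, and LEU1 at -3.04 and -3.29. IMD2 was not, at 2.22 with CFW and 0.14 without it, although its interaction did not pass either (2.08 ± 0.42, adjusted p = 0.0518). Of the 30 genes named for their size 9 had an interaction past the threshold. Among them CHA1 was at -2.41 with CFW and -4.84 without it (interaction 2.43, adjusted p = 4.64e-05), and PUT4 at 2.18 with CFW and 4.76 without it (interaction -2.58, adjusted p = 0.0181). THI4, of thiamine synthesis, was at 2.46 with CFW and 0.61 without it (interaction 1.86, adjusted p = 0.0154). No interaction was called in the 20S core, the 19S particle or the proteasome assembly list, where 2 of 14, 8 of 19 and 4 of 18 genes were higher without CFW.

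Biotin genes gave some of the largest interactions. Of 6 genes for biotin synthesis and uptake 2 were higher, 1 was lower and 3 did not pass with CFW (median 0.24), whereas 5 were higher and 1 was lower without it (median 2.70), and the interaction was called for 5. VHT1, the biotin transporter, was at 0.69 with CFW and 3.35 without it (interaction -2.65, adjusted p = 9.52e-06). BIO3 and BIO4, of biotin synthesis, had 23.0 and 23.7 CPM and 22.0 and 21.8 CPM in mub1 with CFW, against 14.5 and 21.2 CPM and 18.2 and 22.7 CPM in the wild type with CFW. Their interactions were -3.06 and -3.10. YOR387C had the largest negative interaction of the genes named by that test, at 0.43 with CFW and 5.35 without it (interaction -4.93, adjusted p = 4.47e-05).

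**Figure D5:**
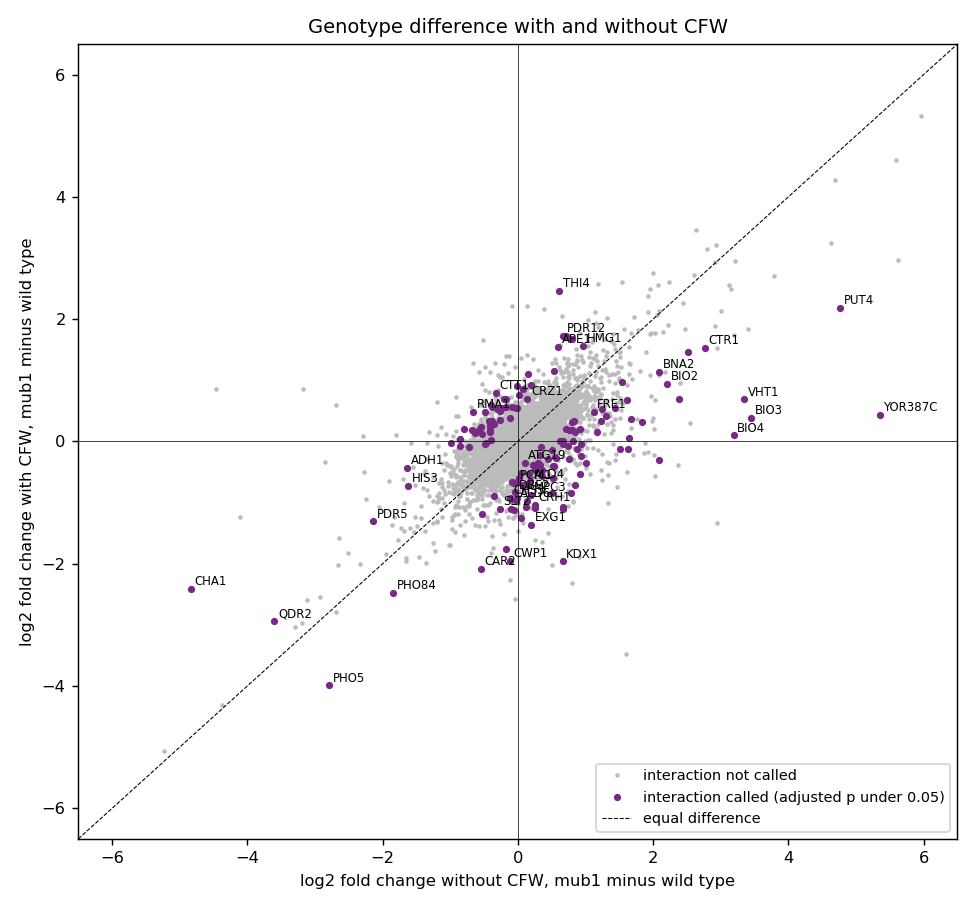
Log2 fold change of mub1 minus wild type without CFW (horizontal axis) and with CFW (vertical axis) for each tested gene within the plotted range, which leaves out the genes present in 1 genotype. Purple points passed the interaction test at an adjusted p of 0.05 and the dashed line marks equal differences. KDX1, CWP1 and EXG1 lie below the horizontal zero line near or right of the vertical one, while VHT1, BIO3, BIO4 and YOR387C lie far right and near the horizontal one.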

How the data were processed

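Per the submitters' processing notes, FastQC 0.12.1 served for quality control, HISAT2 2.2.1 for alignment (build R64) and featureCounts 2.0.3 for counting. The values in the authors' deposited table are raw, unscaled counts. The strand setting of the counting and the treatment of reads with several alignments are not given in the sources used here, so near-identical copies and overlapping genes (such as AQY2 and YLL053C) are uncertain. Of 6534 identifiers 5864 matched the RefSeq annotation of R64, and 670 did not and stayed in the tests (0.16% to 0.229% of a library's counts). No row is a total.

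Total counts were 26154241 and 31677985 in mub1 with CFW and 25403629 and 24634576 in the wild type with CFW. The limit that a count of 0 allows, 3 counts, is 0.0947 to 0.122 CPM there. Such limits and the 95% Clopper-Pearson intervals cover counting error only. Nothing in the labels says that replicates are separate cultures, and the spread behind each p-value is that between libraries, which may be technical.

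edgeR 4.0.16 (R 4.3.3) was run on all 8 libraries in 1 fit with a mean per group, after filterByExpr (5954 genes kept, 580 left out) and TMM scaling (0.9793 to 1.024), with robust quasi-likelihood F tests, 4 residual degrees of freedom and Benjamini-Hochberg adjustment over all tested genes at 0.05. Standard errors are the absolute log2 difference divided by the square root of F. The steps were tested on simulated data. Gene lists (53, from textbook knowledge) are described by counts and medians without a test, and they and the compared groups were chosen with earlier results of these data known.

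Named genes are those present in 1 genotype (at most 3 counts summed over one group and at least 50 in each library of the other), the 15 largest increases and 15 largest decreases among called genes with a mean of at least 10 CPM and no overlap, pathway genes chosen by name, the marker genes, the members of each list with the smallest p (4 at most), and the 4 largest interactions in each direction. Not every gene that the rule names is reported here. Other list members are named outside this rule to describe a list's roles, after their values were seen. Alternatives were upper-quartile scaling, library totals, DESeq2 1.42.0, no filter, only the CFW libraries, a replicate block and leaving out each of the 8 libraries. Promoter windows were read from the R64 genome, and each motif was searched on both strands.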

Additional observations from a re-analysis of the deposited data

Results flagged for a closer look

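For the genes below the difference between the genotypes with CFW was unlike that without CFW by edgeR's interaction test (adjusted p under 0.05). Each value is the log2 difference with CFW minus that without. The number of such calls moved greatly with single libraries, and how far each call below held is not given here. Several were near the threshold, such as HMG1 (adjusted p = 0.0479) and ADH1 (adjusted p = 0.0478). Among cell wall genes these values were -2.62 for KDX1, -1.83 for CWP1, -1.57 for EXG1, -1.29 for CRH1, -0.82 for SLT2, -0.81 for CHS3 and -0.65 for PCM1, and 0.56 for CRZ1 of the calcineurin route. Among transport and drug resistance genes they were 1.06 for PDR12, 0.83 for PDR5 and 0.66 for QDR2. Nitrogen and amino acid genes gave 2.43 for CHA1, 0.89 for HIS3, -1.53 for CAR2 and -2.58 for PUT4. Phosphate genes gave -1.20 for PHO5 and -0.63 for PHO84.

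Vitamin and cofactor genes gave 1.86 for THI4, -0.95 for BNA2, -1.26 for BIO2, -2.65 for VHT1, -3.06 for BIO3 and -3.10 for BIO4. Copper uptake genes gave -1.23 for CTR1 and -0.64 for FRE1. In central metabolism the values were 1.21 for ADH1, -0.83 for ALD4, -0.93 for ALD6, -1.07 for MPC3 and 0.61 for HMG1. The rest were 1.12 for CTT1, a catalase gene, 1.14 for RMA1, 0.96 for APE1, -0.45 for ATG19, -0.79 for DBF2 and -4.93 for YOR387C.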

How the results depend on the processing

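Directions of the named genes that passed were stable, and calls were less so. Whole lists were not always stable: those of ribosomal proteins and ribosome biogenesis, described above, moved with single wild-type libraries. The 2138 genes called with CFW became 1419 with only the CFW libraries fitted and ranged from 1274 to 2502 when each library was left out, and the 246 called at least 2-fold did not move by 1.5 times under any alternative. Without CFW 2554 genes were called, and 1440 to 3223 with a library left out. The interaction count of 149 was 561 by DESeq2, 92 with the replicate block, and 9 to 1779 with a library left out. Of the 227 named genes, 21 lost their call without mub1 replicate 1 and 22 without mub1 replicate 2. The cause was not tested. Among the named genes, sign changes were limited to those that did not pass. Their ranges with a library left out were -0.08 to 0.03 for RAD6, -0.66 to 0.18 for GSC2, -0.01 to 0.06 for FKS1, -0.00 to 0.18 for PDR3, -0.01 to 0.27 for HSF1 and -0.06 to 0.26 for BIO4. Scaling moved the median over all genes by under 0.01.

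Replicate numbers in the labels are not said to mark a shared culture or day. Deviations of same-numbered mub1 and wild-type libraries with CFW correlated at -0.161. With 2 libraries a group this value cannot show whether the numbers mark a pairing, and the main fit assumed none. With the replicate block 1941 genes were called with CFW, and 5 named genes lost their calls. The fit with only the CFW libraries was not run for the comparison without CFW or for the interaction, which need the other libraries. With 2 libraries a group, small differences such as those of single proteasome genes are near the limit of what these data resolve.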

Other observations

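Metal and vitamin genes were mixed between mub1 and the wild type with CFW. Of 24 iron uptake genes 6 were higher, 5 were lower and 13 did not pass (median -0.01). FIT3, a wall mannoprotein that retains siderophore iron, had 23.1 and 23.8 CPM in mub1, against 66.9 and 85.8 CPM in the wild type (log2 -1.70 ± 0.11, adjusted p = 8.35e-06), and FET4, a low-affinity iron transporter, was higher (0.83 ± 0.09). The higher iron count was 3 with only the CFW libraries fitted and without mub1 replicate 1 or wild-type replicate 1, and the lower count was 3 with only the CFW libraries and without either replicate 2. Of 10 copper genes 3 were higher, 2 were lower and 5 did not pass (median 0.12). CTR1, the copper transporter, had 84.0 and 91.6 CPM in mub1, against 31.4 and 29.4 CPM in the wild type (log2 1.53 ± 0.13). Of 15 zinc genes 2 were higher, 1 was lower and 12 did not pass (median 0.21). Of 17 thiamine genes 5 were higher, 2 were lower and 10 did not pass (median 0.21); THI4 had 65.5 and 64.8 CPM in mub1, against 9.48 and 14.1 CPM in the wild type (log2 2.46 ± 0.17). Of 9 genes of the kynurenine route to NAD 3 were higher, 1 was lower and 5 did not pass (median 0.19), with BNA2, its entry enzyme, at 1.14 ± 0.11. CRS5 of the copper list, HXT17 of the hexose transporter list and NUM1 of the CLB2 list were not analysed here.

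Carbon storage and stress genes had calls in both directions. Of 24 glycolysis and fermentation genes 3 were higher, 3 were lower and 18 did not pass (median -0.13), with the aldehyde dehydrogenase gene ALD6 at -0.97 ± 0.10, and the lower count was 8 by DESeq2. Of 23 hexose transporter and sensor genes 6 were higher, 3 were lower and 14 did not pass (median -0.02). HXT6, a high-affinity transporter with a near-identical copy, had 2205 and 1986 CPM in mub1, against 870 and 1284 CPM in the wild type (log2 0.96 ± 0.17). Of 18 glycogen and trehalose genes 3 were higher, 4 were lower and 11 did not pass (median 0.03), and the glycogen synthase gene GSY2 had 856 and 828 CPM in mub1, against 1683 and 1857 CPM in the wild type (log2 -1.07 ± 0.11). Without wild-type replicate 2 or either mub1 library, and with only the CFW libraries fitted, 2 were lower, and without wild-type replicate 2 there were 6 higher. Of 15 glycerol and osmotic stress genes 6 were higher, 1 was lower and 8 did not pass (median 0.24). Of 21 oxidative stress genes 4 were higher, 8 were lower and 9 did not pass (median -0.03), led by GPX2, a glutathione peroxidase, at -1.47 ± 0.14. The higher count was 2 without either mub1 library and the lower count was 5 without mub1 replicate 1.

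Among genes of growth and turnover, 3 of 10 histone genes were higher, 0 were lower and 7 did not pass (median 0.20). The calls of these 3, HTA1, HTB1 and HHT2, did not hold when single libraries were left out. HHT2 also lost its call with only the CFW libraries fitted. Of 15 genes of the mitotic CLB2 cluster 0 were higher, 6 were lower and 9 did not pass (median -0.21), with the mitotic exit kinase gene DBF2 at -0.83 ± 0.11, and without mub1 replicate 2 there were 2 lower. Of 13 DNA damage and ribonucleotide reductase genes 3 were higher, 2 were lower and 8 did not pass (median 0.14). With only the CFW libraries fitted HUG1 (lower) and RNR2 (higher) lost their calls, and that of RNR1 (lower) depended on single libraries. Of 18 inositol and phospholipid genes 1 was higher, 5 were lower and 12 did not pass (median -0.13), and without mub1 replicate 2 there were 3 lower. Of 19 autophagy and vacuolar protease genes 6 were higher, 3 were lower and 10 did not pass (median 0.07). APE1, a vacuolar aminopeptidase, had 471 and 497 CPM in mub1, against 171 and 160 CPM in the wild type (log2 1.55 ± 0.10). The higher count in that list was 3 with only the CFW libraries fitted, 2 without mub1 replicate 1 and 3 without mub1 replicate 2, and the lower count was 6 without wild-type replicate 1.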
